A study of Mus musculus with 24 samples.

Results

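The transcripts described here are 95 lncRNA probes that the study listed as testis-specific and that were detected in the germ cell-related lines GC-1 or GC-2, or in both, but not in the F9 line. They were picked from the 229 lncRNA probes of the study's supplementary list of testis-specific transcripts present in the lines, out of 60804 transcript probes on the array. The main text of the study gives a count that differs slightly from these 229. Detection means that the scanner software marked the signal of a probe as well above background on all 3 arrays of a tissue or line. The detection pattern was met by 102 of the 229 probes, and 7 of these were left out because the study also lists them as conserved in human. Among all probes 9.61% met it, as did 3881 of the 33639 probes detected in testis. Of the 95 lncRNAs, 28 were detected in both GC lines, 38 in GC-1 alone and 29 in GC-2 alone. For comparison, 45 lncRNAs were detected in all 3 lines and 41 in F9 alone among the 206 left after the same exclusions, against 55 and 45 of the whole list. The members were chosen by measured values: the contrasts of testis with the other tissues and of the GC lines with F9 chose these lncRNAs, and their values in those contrasts are given as a description with no test.

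Testis, brain, heart, kidney and liver came from male ICR mice aged 8 weeks and were profiled beside 3 mouse lines, with 3 arrays per tissue or line and 24 in all. F9 is an embryonal carcinoma line kept on gelatin without retinoic acid, GC-1 is an immortalized line at a stage near the last spermatogonia before meiosis, and GC-2 is an immortalized line with traits of spermatocytes. All lines grew in the same serum-containing medium, no sample received a treatment, and each line stands for 1 established stock of cells. The labels call the 3 arrays of a group biological replicates and do not say how the cultures were separated.

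Long noncoding RNAs are transcripts without an evident protein product, and the testis expresses an unusually rich set of them, much of it from meiotic and postmeiotic germ cells. A testis holds somatic cells and germ cells of every stage, whereas a cultured line is a single dividing population, so a line samples only part of what a whole testis makes. Some lncRNAs act on a neighbouring gene, others act elsewhere or have no known role, and for most of the lncRNAs below no function is known. In these bulk samples, fewer cells of a type and less RNA per cell cannot be told apart.

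Levels below are log2 processed intensities minus the 75th percentile of the same array, so that 0 equals that percentile. Replicate 1 of every group was hybridized on 1 slide, and replicates 2 and 3 of the lines on another. Replicates 2 and 3 of testis were on a different slide from those of the lines. The 75th percentile was 65.5 to 105 intensity units on the F9 arrays, 98.2 to 131 on the GC-1 arrays and 107 to 146 on the GC-2 arrays. The lowest detected level therefore lay between -2.94 and -2.14 on the F9 arrays. On the GC-1 arrays it ran from -3.00 to -2.78 and on the GC-2 arrays from -3.39 to -2.69, so among the lines the limit of detection reached its highest value in F9. On the testis arrays the 75th percentile was 305 to 384 and the lowest detected level -4.87 to -4.44, so the limit of detection was lower in testis than in the lines. Of 29 marker genes chosen for checking the labels, only 5 could be identified among the probes. Zfp42, a pluripotency marker, was detected in F9 (4.65 ± 0.39, SD, n = 3) and on no GC array. Stra8, the retinoic acid-induced gene of the entry into meiosis, was detected in testis and F9 and on no array of GC-1 or GC-2. Star, the steroidogenic cholesterol carrier of Leydig cells, was detected in testis, GC-1 and GC-2. Its level was 2.58 ± 0.34 in testis but only -2.23 ± 0.28 in GC-1 and -1.55 ± 1.40 in GC-2 (SD, n = 3). In F9, where 1 array detected Star, the level was -2.31 ± 1.12 and thus close to that of GC-1. The lncRNA of the neuronal gene Snap25 was detected on no array outside brain, and that of Gap43 in brain and in all 3 lines. The germ cell identity of GC-1 and GC-2 could not be checked further with these probes.

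**Figure D1:**
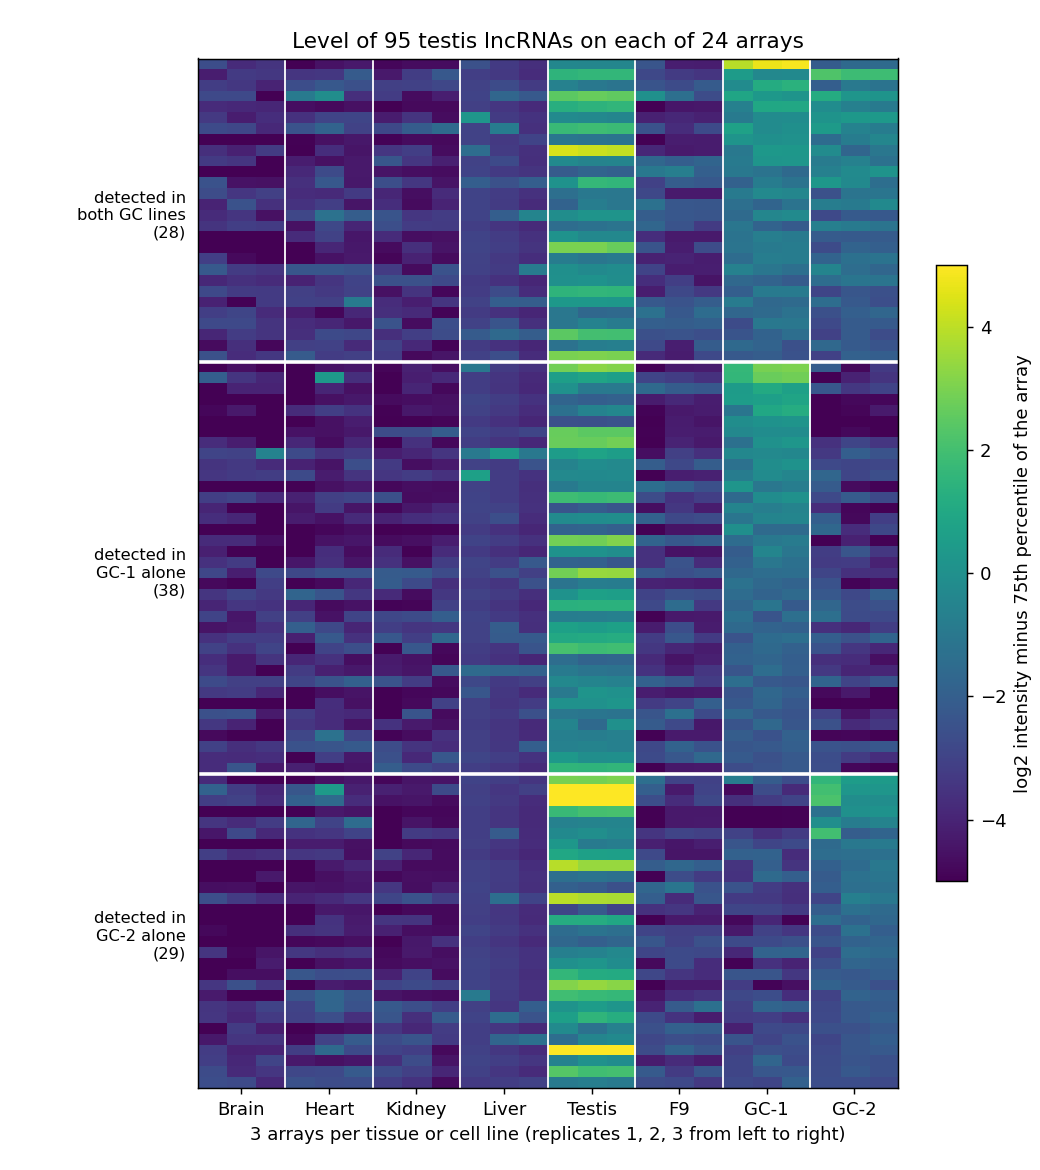
Level (colour, log2 intensity minus the array's 75th percentile, from -5 to 5) of the 95 lncRNAs in rows on each of the 24 arrays in columns, grouped by the line in which they were detected. The testis means run from -2.69 to 5.38, and the F9 mean lies below that of the GC line in which the lncRNA was detected in all but 8 cases.

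Sequence for the region around the start of the gene was held for 29 of the genes matched by name or accession to RefSeq, as 35 windows of 300 bases. Shown here are 5 of these windows, 2 from lncRNAs detected in both GC lines, 1 from GC-1 alone and 2 from GC-2 alone, since these are named lncRNA genes whose levels are described below. Each runs from 250 bases before to 50 bases after the RefSeq start on GRCm38.p6, is written 5′ to 3′ on the strand of the gene, and has in capitals every match, on either strand, to 5 motifs. The TATA box was searched as TATAAA and the CCAAT box as those letters alone. The GC box was searched as GGGCGG. The cAMP response element was searched as TGACGTCA, which reads the same on both strands. The E-box was searched as CACGTG, which does so too. A run of capitals can hold motifs that touch or overlap. The windows lie at chr13:31582464-31582763 (minus strand) for 1700018A04Rik, chr6:147243752-147244051 (minus strand) for Gm15767, chr8:92356071-92356370 (minus strand) for 4933436C20Rik, chr11:88718393-88718692 (plus strand) for C030037D09Rik and chr13:50765199-50765498 (minus strand) for 4930518P08Rik.
1700018A04Rik: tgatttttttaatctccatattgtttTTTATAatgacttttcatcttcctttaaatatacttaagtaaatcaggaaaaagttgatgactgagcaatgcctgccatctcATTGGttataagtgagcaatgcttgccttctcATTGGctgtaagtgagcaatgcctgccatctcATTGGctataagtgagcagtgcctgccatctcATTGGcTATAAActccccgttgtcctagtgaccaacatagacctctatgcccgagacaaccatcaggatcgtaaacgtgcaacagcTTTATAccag
Gm15767: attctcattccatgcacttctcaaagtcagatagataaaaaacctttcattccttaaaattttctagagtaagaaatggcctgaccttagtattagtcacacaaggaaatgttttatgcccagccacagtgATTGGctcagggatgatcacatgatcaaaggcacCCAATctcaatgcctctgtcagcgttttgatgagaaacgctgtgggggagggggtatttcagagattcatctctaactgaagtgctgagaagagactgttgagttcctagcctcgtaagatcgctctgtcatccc
4933436C20Rik: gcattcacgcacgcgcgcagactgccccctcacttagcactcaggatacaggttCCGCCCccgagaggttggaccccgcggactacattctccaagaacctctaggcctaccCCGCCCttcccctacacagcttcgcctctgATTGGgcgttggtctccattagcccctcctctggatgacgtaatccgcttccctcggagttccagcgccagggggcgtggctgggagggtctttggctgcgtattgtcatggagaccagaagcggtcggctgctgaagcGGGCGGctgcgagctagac
C030037D09Rik: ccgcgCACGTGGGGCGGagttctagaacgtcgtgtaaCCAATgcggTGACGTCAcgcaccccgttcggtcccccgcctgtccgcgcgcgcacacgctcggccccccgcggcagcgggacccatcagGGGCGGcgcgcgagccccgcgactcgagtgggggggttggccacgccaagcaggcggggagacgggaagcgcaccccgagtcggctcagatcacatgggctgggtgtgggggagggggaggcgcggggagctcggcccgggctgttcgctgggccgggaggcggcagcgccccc
4930518P08Rik: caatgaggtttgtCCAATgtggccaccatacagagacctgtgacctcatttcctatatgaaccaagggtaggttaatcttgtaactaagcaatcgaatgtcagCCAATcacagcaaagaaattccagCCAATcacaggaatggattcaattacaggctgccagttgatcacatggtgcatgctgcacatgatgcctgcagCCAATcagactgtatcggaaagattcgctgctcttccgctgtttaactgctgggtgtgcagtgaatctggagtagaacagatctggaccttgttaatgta

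The 5 windows differed in composition. C030037D09Rik had a GC content of 75.7% with 42 CpG dinucleotides, and 4933436C20Rik, the mouse Crnde gene, 62.7% with 22. The windows of 1700018A04Rik, Gm15767 and 4930518P08Rik had 40.3%, 43.0% and 45.3%, with 4 CpG each. The window of 1700018A04Rik held the CCAAT box 4 times, each on the opposite strand and at the end of a repeated stretch, and the TATA box 3 times, of which 1 on the gene's strand began 40 bases before the start. The window of 4930518P08Rik also held 4 CCAAT boxes, that of Gm15767 held 2, and those of 4933436C20Rik and C030037D09Rik held 1 each. In C030037D09Rik the E-box and a GC box stood directly side by side, and a cAMP response element followed. Over the 35 windows, 15 held a CCAAT box, 25 a GC box, 2 a TATA box, 2 a cAMP response element and 5 an E-box. All 32851 RefSeq windows of the same length were searched too, with no chromosome left out, whereas the 35 leave out chromosome 18. Of these, 37.4% held a CCAAT box, 35.7% a GC box, 13.6% a TATA box, 1.79% a cAMP response element and 7.15% an E-box. The median GC content was 60.7% over the 35 windows and 52.7% over all windows. These windows include those of the protein-coding genes for which some of the lncRNAs are named, and the probed transcript need not begin at the RefSeq start.

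Of the 95 lncRNAs, 42 were matched to a RefSeq gene, 20 of them annotated as lncRNA, 18 as protein coding and 4 as pseudogenes. A protein-coding match means only that the noncoding transcript carries the name of that locus. The 53 lncRNAs with a known chromosome were spread over most chromosomes, with the most, 6, on chromosome 11. The study lists 20 of the 95 as intergenic and within 10 kb of a protein-coding gene, in 22 pairs, of which 3 pairs overlapped by the RefSeq annotation. By the same annotation AK041297 lay 732 bases from Egr3, Gm15892 747 from Vezf1 and AK015406 419 from Ier2. These pairs too are closer than the study's own definition of intergenic allows.

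In the tissues, all 95 lncRNAs were detected on the 3 testis arrays and none on all 3 arrays of another tissue. The study asked for more, by its own flags and normalization, namely that these lncRNAs be absent in the other tissues and differ at least 5-fold. No array of another tissue detected 36 of them (37.9%), beside 13.1% of all probes detected in testis, and nothing is read from this, since the tissues chose the list. At least 1 brain array detected 45, at least 1 heart array 30, at least 1 kidney array 21 and at least 1 liver array 7, beside 81.9%, 77.2%, 75.2% and 61.4% of the probes detected in testis. These counts rest much on replicate 1 and are 25, 18, 12 and 5 without it, with 40 of the lncRNAs on brain replicate 1 against 10 and 15 on the other brain arrays. These 36 were 6 of the 28 lncRNAs of both GC lines, 17 of the 38 of GC-1 alone and 13 of the 29 of GC-2 alone. Testis levels ran from -2.69 to 5.38. They lay at least 5-fold above the nearest other tissue for 33 of the 95 (34.7%), counting each other array at no less than its lowest detected level. That tissue was liver for 94 of them all, and the lowest detected level on the liver arrays ran from -1.61 to -0.98, the highest of all groups. A level depends on the probe as well as on its transcript, so levels are compared between samples for 1 probe and not between probes.

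Dlx4 had the widest difference between GC-1 and GC-2 of the 28 lncRNAs detected in both. Its probed transcript (uc007laa.2) is a noncoding transcript of the locus of the homeobox factor Dlx4, on chromosome 11 (RefSeq gene at 95140447 to 95146294). In GC-1 its level was 3.91, 4.71 and 4.88 on the 3 arrays, and in GC-2 it was -2.08, -1.56 and -1.55. In testis it was -0.37, -0.41 and -0.42, and in F9 -2.37, -4.14 and -4.19 with detection on the first array alone. Every GC-1 array thus lay above every testis array and every testis array above every GC-2 array. The difference of GC-2 from GC-1 was -6.23 ± 0.44 (SE), a 75.05-fold lower level, with an adjusted p of 1.7e-06.

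The comparison of the GC lines with each other was not used to choose the 28 lncRNAs detected in both, and it was tested with limma over all 60804 probes with Benjamini-Hochberg adjustment, calling a difference at an adjusted p of 0.05 or less and 2-fold or more. Of the 28, 5 (17.9%) were lower in GC-2 and 1 (3.57%) was higher. The number lower was 8 without GC-1 replicate 1, 3 with quantile scaling, and 2 with normexp background correction or with the methods' t-test after adjustment. Among all probes, 5.14% were called lower and 4.25% higher, and among the 22951 probes detected in both lines 5.74% lower and 6.09% higher. Over the 28, the median difference of GC-2 from GC-1 was -0.66, beside -0.08 over the 33639 probes detected in testis and -0.12 over all probes. Unlike the 28, both of the larger sets hold probes not detected in the GC lines, so these medians are not of like sets. Every GC-2 array lay below every GC-1 array for 8 of the 28 and above for 5, and the arrays overlapped for 15, with 19.4% and 20.9% for below and above among all probes detected in both lines.

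AK131748, an lncRNA with no RefSeq match, was at -0.16, 1.15 and 1.39 in GC-1 and at -2.0, -0.96 and -1.20 in GC-2, a difference of -2.18 ± 0.40 (SE, adjusted p = 0.00362). Its testis level of -0.91 ± 0.30 (SD, n = 3) lay between the 2 lines. AK018903 was at -1.53, -0.42 and -0.23 in GC-1 and at -2.77, -2.17 and -2.24 in GC-2, a difference of -1.67 ± 0.32 (adjusted p = 0.00468). For both transcripts replicate 1 was the lowest array of each line, and the lines did not overlap. Both lost the call in the methods' t-test (adjusted p of 0.16 and 0.163), and AK018903 also with normexp correction, where its difference was -0.68. AK161420 was at -1.20, -0.73 and -0.91 in GC-1 and close to -2.14 on all GC-2 arrays, a difference of -1.19 ± 0.23 (SE, adjusted p = 0.00509). It lost the call with quantile scaling (adjusted p = 0.0787) and with normexp correction, where the difference was -0.52.

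AK041297 lies on the plus strand of chromosome 14 (70075161 to 70076585), 732 bases from Egr3, the gene of an immediate early zinc finger factor. It was at -1.99, -0.90 and -0.86 in GC-1 and at -2.91, -2.33 and -2.54 in GC-2, a difference of -1.34 ± 0.37 (SE, adjusted p = 0.0381). The lines did not overlap, yet the call was lost on leaving out GC-1 replicate 2 or 3 or any GC-2 replicate, with adjusted p from 0.0593 to 0.15, and it rests on all of these arrays. The call was also lost with normexp correction, quantile scaling and the methods' t-test. With the replicate number as a block its adjusted p was 0.00879.

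Nxn was the lncRNA higher in GC-2. The transcript (ENSMUST00000131472) is named for nucleoredoxin, a thioredoxin-like protein, whose gene lies on chromosome 11 (76257226 to 76399141). It was at 0.48, -0.34 and -0.24 in GC-1 and at 2.23, 1.87 and 1.90 in GC-2, a difference of 2.04 ± 0.26 (SE, adjusted p = 0.000262). In testis it was at 1.58 ± 0.08 (SD, n = 3) and on no F9 array well above background, which gives a level at least 20.8-fold higher in GC-2 than F9 and at least 5.06-fold higher in GC-1 than F9. Within slides the difference of GC-2 from GC-1 was 1.75 on the slide of replicate 1 and 2.18 on the other.

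**Figure D2:**
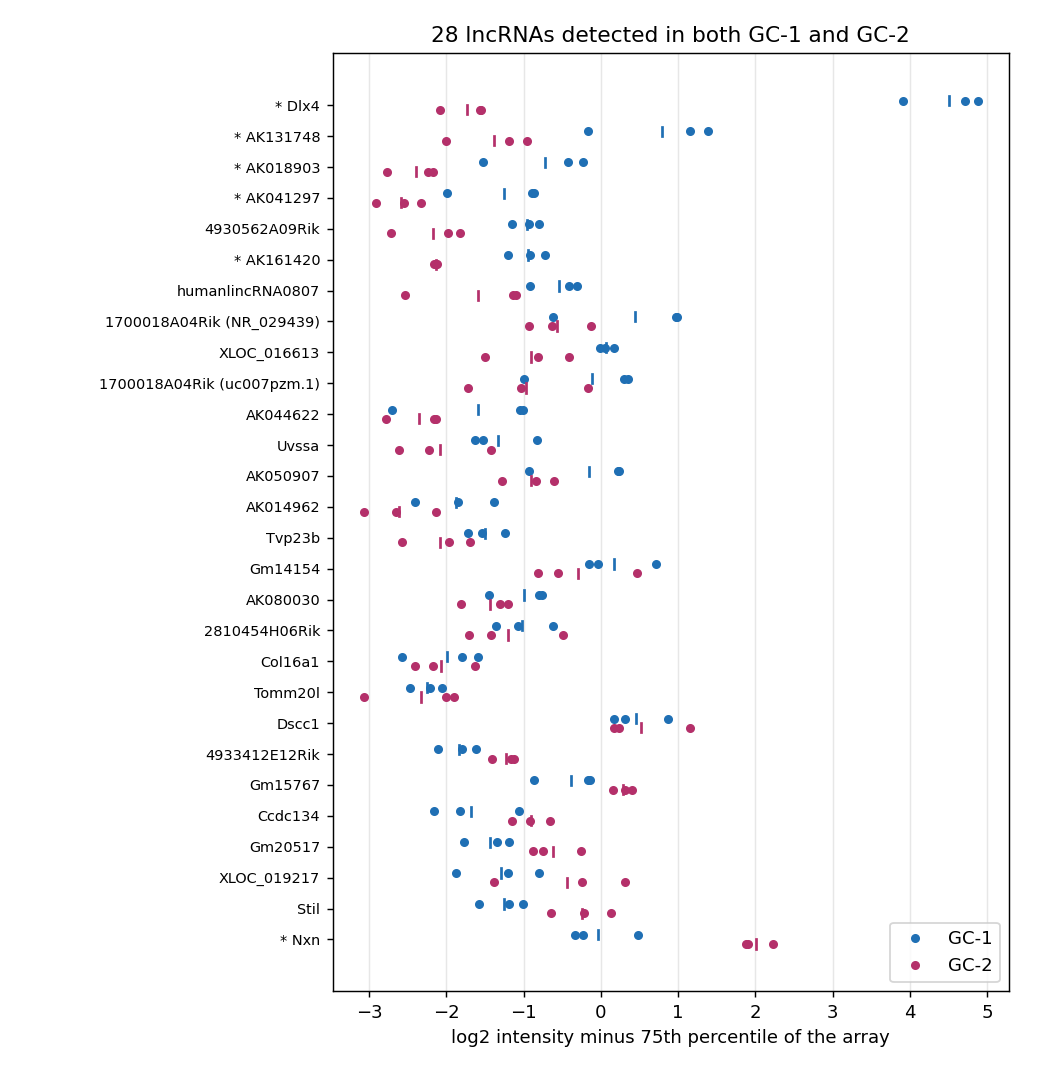
Level on each GC-1 (blue) and GC-2 (magenta) array of the 28 lncRNAs detected in both lines, with short vertical bars for the mean of 3 arrays, ordered from the largest fall to the largest rise in GC-2. A star marks the 6 lncRNAs called in the test, with Dlx4 at the top far to the right in GC-1.

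Of the other lncRNAs detected in both lines, several with bright probes did not pass the test. Gm15767 lies on chromosome 6 (147242527 to 147243801, minus strand), 8308 bases from Pthlh, the gene of the parathyroid hormone-like hormone. Its levels were -0.87, -0.16 and -0.14 in GC-1 and 0.16, 0.31 and 0.40 in GC-2, with all GC-2 arrays above all GC-1 arrays (difference 0.68 ± 0.23, SE, adjusted p = 0.0874). It was detected on no F9 array, so its level was at least 6.51-fold higher in GC-2 and at least 4.07-fold higher in GC-1 than in F9. Gm14154 lies on chromosome 2 (151947273 to 151950641, minus strand), 1936 bases from Angpt4, the gene of an angiopoietin. It was at 0.71, -0.16 and -0.04 in GC-1 and at 0.47, -0.56 and -0.82 in GC-2, and the lines overlapped (adjusted p = 0.634).

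1700018A04Rik was read by 2 probes, for transcripts that share an end and lie on the minus strand of chromosome 13 (31565492 to 31582513 and 31567397 to 31582513), 4516 and 6421 bases from Foxq1, the gene of a forkhead factor. The NR_029439 probe was at -0.63, 0.97 and 0.98 in GC-1 and at -0.13, -0.64 and -0.94 in GC-2. The uc007pzm.1 probe was at -0.99, 0.34 and 0.30 in GC-1 and at -0.17, -1.72 and -1.03 in GC-2. Both probes thus had their lowest GC-1 level and their highest GC-2 level on replicate 1. Within slides the difference of GC-2 from GC-1 was 0.50 and 0.82 on the slide of replicate 1 and -1.76 and -1.70 on the other slide, so the direction turned with the slide, and neither probe passed the test (adjusted p of 0.172 and 0.275). No F9 array detected either probe. In testis the same probes were at 1.45 ± 0.15 and 4.22 ± 0.15 (SD, n = 3).

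Some of the lncRNAs carry the names of genes of chromosome segregation and DNA repair, and of these Dscc1, Stil and Uvssa were detected in both GC lines without a call between them. They are described because of those names, and others are named for unrelated genes, such as Dapp1, Arid3a, Col16a1, Urb1 and Tomm20l. Such names are not particular to this set: Cenpf, Kif2c, Rad54b and Rad54l of the study's list were detected in all 3 lines. Dscc1 encodes a subunit of a clamp loader in sister chromatid cohesion. Its lncRNA was at 0.87, 0.32 and 0.16 in GC-1, at 1.15, 0.23 and 0.17 in GC-2, and at 0.03, -1.34 and -2.66 in F9, where the first and the second array detected it. The mRNA probe of Dscc1 was detected on all arrays of F9, GC-1 and GC-2. Stil encodes a protein of centriole duplication. Its lncRNA was at -1.01, -1.19 and -1.58 in GC-1, at -0.65, -0.22 and 0.12 in GC-2 and at -1.01, -0.70 and -1.99 in F9, so F9 overlapped GC-1, and the difference between the GC lines was 1.01 ± 0.33 (SE, adjusted p = 0.0796). The lncRNA named for Uvssa, a gene of transcription-coupled repair, was at -1.33 ± 0.43 in GC-1 and -2.09 ± 0.61 in GC-2 (SD, n = 3, adjusted p = 0.178). Another lncRNA probe of the study's list, 4933407H18Rik, matches the same gene by synonym and was detected in all 3 lines, F9 among them. The lncRNA of Knstrn, which encodes a spindle and kinetochore protein, was detected in GC-1 alone. Its means were -1.97 in GC-1, -2.37 in GC-2 and -2.48 in F9, with overlapping arrays in all 3.

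For lncRNAs detected in a single GC line, the difference between the lines is part of how they were chosen and has no test. Of the 38 detected in GC-1 alone, 15 were on no GC-2 array, 14 on 1 and 9 on 2, and every GC-2 array lay below every GC-1 array for 32, beside 72.5% of all probes detected in testis and, of the lines, in GC-1 alone. For the 15 on no GC-2 array, the level in GC-1 was at least 1.79-fold to at least 41.7-fold higher. Of the 29 detected in GC-2 alone, 14 were on no GC-1 array, 5 on 1 and 10 on 2, and every GC-2 array lay above every GC-1 array for 20, beside 56.4% of all probes detected in testis and, of the lines, in GC-2 alone. For these 14, the level in GC-2 was at least 1.35-fold to at least 12.6-fold higher. In 4 of the 29, the GC-1 mean was at or above the GC-2 mean although GC-1 was not detected on all 3 arrays.

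1700021O21Rik was read by 2 probes, both high in GC-1 and without a detected signal in the other lines. ENSMUST00000177682 was at 0.54, 0.65 and 0.84 in GC-1, between -5.32 and -4.77 in GC-2 and between -4.25 and -3.84 in F9. ENSMUST00000114080 was at -0.09, 0.11 and 0.17 in GC-1, between -5.71 and -4.98 in GC-2 and between -5.29 and -4.23 in F9. Neither was well above background on any F9 or GC-2 array, and their levels in GC-1 were at least 12.7-fold and at least 8.29-fold higher than in GC-2. Testis was below GC-1, with -1.89 ± 0.11 and -2.50 ± 0.05 (SD, n = 3).

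AK016288 and AK079217 belonged to the GC-1 set. AK016288 was at 1.65, 2.93 and 3.02 in GC-1, 3.08 ± 0.20 (SD, n = 3) in testis and -2.04, -4.79 and -3.29 in GC-2, where the first array detected it. AK079217 was at 1.62, 2.73 and 2.82 in GC-1. Its GC-2 levels ran from -5.63 to -3.48, with no GC-2 or F9 array well above background, so that it was at least 41.7-fold higher in GC-1 than GC-2 and at least 28-fold higher than F9. For both, replicate 1 was the lowest GC-1 array and still above every array of GC-2 and F9. AK033021 was at -1.12, 0.97 and 1.18 in GC-1 and at -4.87 ± 0.59 in GC-2. Gm19791, annotated as a pseudogene on chromosome 10, was at 0.48, 1.08 and 0.69 in GC-1 and at -2.29, -3.37 and -2.99 in GC-2.

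Of the GC-2 set, LOC100041014 and FJ541090 stood higher on 1 GC-2 array than on the other two. LOC100041014 was at 1.99, 0.26 and 0.26 in GC-2 and between -4.76 and -2.68 in GC-1. FJ541090 was at 2.18, -0.09 and -0.10 in GC-2 and between -3.66 and -3.00 in GC-1. 4930518P08Rik, whose promoter window is shown above, stood at 1.96 on GC-2 replicate 1 and at -2.06 and -1.76 on replicates 2 and 3, a spread of 2.24 (SD). All 3 were on no GC-1 array and were detected on all GC-2 arrays. The part of the slide in the high value of replicate 1 was not tested. Whether the probes of LOC100041014 and FJ541090 read separate gene copies could not be checked with the files used here.

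Gm16040 was at 1.59, 0.53 and 0.44 in GC-2 and at -0.78, -2.09 and -2.64 in GC-1, where 2 arrays detected it. Gm21917, on chromosome 15, went the other way across the slides, at -1.31 on GC-2 replicate 1 and 0.02 and 0.08 on the others, and was between -5.20 and -4.95 in GC-1. C030037D09Rik, on chromosome 11, was at -0.05, -0.82 and -0.53 in GC-2, between -5.22 and -4.95 in GC-1 and at -0.54 ± 0.06 (SD, n = 3) in testis. Its level in GC-2 was at least 5.28-fold higher than in GC-1 and at least 3.86-fold higher than in F9, and Gm21917 was at least 5.53-fold and at least 4.04-fold higher.

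**Figure D3:**
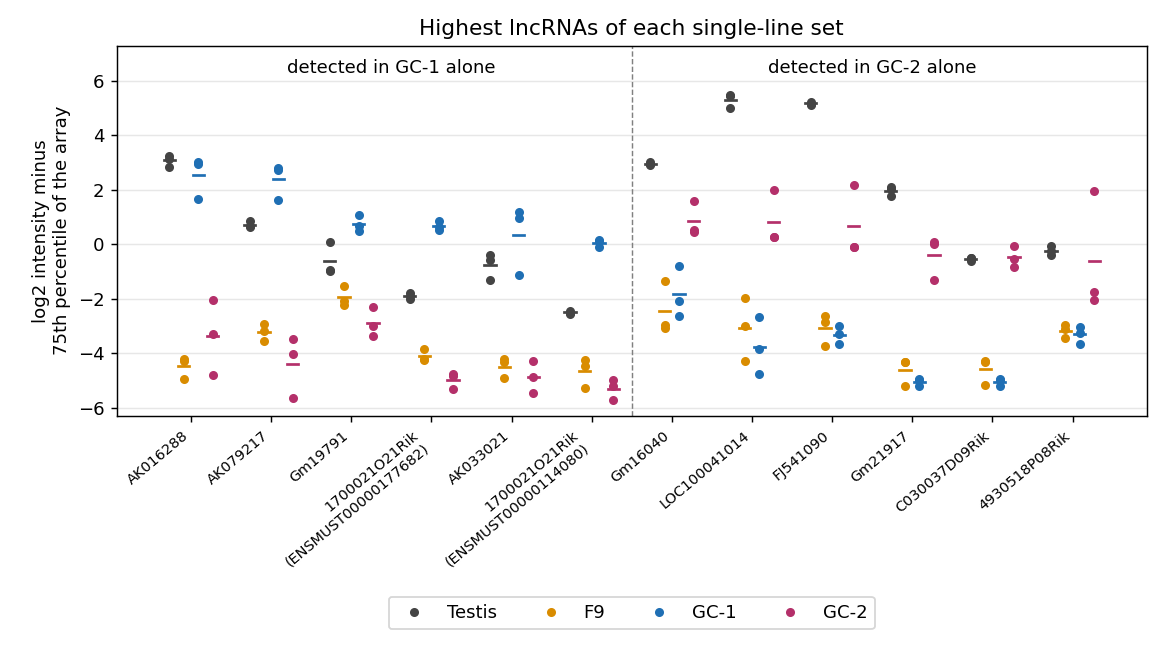
Level on each testis, F9, GC-1 and GC-2 array (points, with the mean of 3 arrays as a bar) of the 6 lncRNAs with the brightest probes detected in GC-1 alone, on the left, and in GC-2 alone, on the right. LOC100041014, FJ541090 and 4930518P08Rik each have 1 GC-2 array near 2 with the others at 0.26 or below, and both 1700021O21Rik probes lie higher in GC-1 than in testis.

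Several lncRNAs of the single-line sets that the study lists as intergenic lie beside genes of transcription and chromatin. They are described here because of that neighbour. The other single-line lncRNAs with a listed neighbour lie beside Gstt2, Akr1b10, Fchsd2, Tbcel, Myo1e, Mcf2, B4galnt2, Phlpp1 and Rai14. 4933436C20Rik lies on chromosome 8 (92326250 to 92355891, minus strand), 1905 bases from the Iroquois homeobox gene Irx5. It was at -1.48, -1.81 and -1.54 in GC-1, below it at -2.23, -2.84 and -1.97 in GC-2, and at least 1.75-fold higher in GC-1 than in F9. Gm15892, 747 bases from the zinc finger gene Vezf1, was at -2.42, -1.67 and -2.0 in GC-1 and on no GC-2 or F9 array. Gm7904, 7777 bases from Smarca4, the gene of an ATPase of SWI/SNF chromatin remodelling, was at -2.26, -1.74 and -2.26 in GC-1 and at -5.54, -4.93 and -5.13 in GC-2, but F9, at -3.26, -2.95 and -1.97, overlapped GC-1. AK144595, 9238 bases from Hmga1, the gene of an architectural chromatin protein, was at -0.01, -1.56 and -1.55 in GC-1 and at -1.67, -3.74 and -2.82 in GC-2.

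XLOC_010857, which overlaps the TFIID subunit gene Taf8, was at -2.15, -2.53 and -2.22 in GC-1 and at -2.76, -2.29 and -1.62 in F9. F9 thus reached the level of GC-1 for this lncRNA. AK015406, on chromosome 8 and 419 bases from the immediate early gene Ier2 and 5451 bases from the transcriptional regulator gene Nacc1, was at -2.13, -1.25 and -1.13 in GC-2 and at -3.55, -1.56 and -1.98 in GC-1. For AK015406 the 2 lines overlapped. AK149221, 9875 bases from Myo1e, was at -0.50, -0.70 and -0.54 in GC-1 and on no GC-2 or F9 array, at least 5.31-fold higher in GC-1 than in GC-2.

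The contrast with F9 chose these lncRNAs, and it was uneven among them. No F9 array detected 54 of the 95, 1 array detected 30 and 2 arrays detected 11. F9 replicate 1, which had the highest 75th percentile of the F9 arrays, detected 37 of them, replicate 2 detected 9 and replicate 3 detected 6. Every GC-1 array lay above every F9 array for 52 of the 66 lncRNAs detected in GC-1, with 32.4% for all probes detected in GC-1. The same held in GC-2 for 36 of 57, with 30.3% for all probes detected in GC-2. Nothing is read from these shares, since the same contrast chose the members. Among lncRNAs on no F9 array, the level was at least 1.12-fold to at least 30.9-fold higher in GC-1 for 37 of 38 and at least 1.04-fold to at least 20.8-fold higher in GC-2 for 26 of 29, and for the others no bound above 1 could be set.

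In 8 cases the mean of F9 was not below that of the GC line. The F9 mean was at or above the GC-1 mean for XLOC_010857 and Stil, and at or above the GC-2 mean for Gm6455, AK018903, Gm13858, AK044622, AK014962 and Tvp23b. AK044622 was at -1.97, -2.07 and -1.95 in F9 and at -2.78, -2.13 and -2.16 in GC-2, with every F9 array above every GC-2 array. Just inside the rule, with 2 F9 arrays detected, lay 11 lncRNAs with F9 means from -2.54 to -1.23, of which Stil, Dscc1, Tvp23b and Trmt10a had the highest, at -1.23, -1.32, -1.66 and -1.77. Tvp23b, named for a Golgi protein gene, was at -1.50 in GC-1 and -2.08 in GC-2, and Trmt10a, named for a tRNA methyltransferase gene, at -1.54 in GC-2. Outside it, with all 3 F9 arrays detected, FJ541082, Cep110 and Gm16425 had the lowest F9 means, of -1.98, -1.97 and -1.83, so the ranges on either side overlapped. The flag compares the intensity of a spot with background on its own array and takes no account of the normalized level. The Gas5 transcript ENSMUST00000159706, from the snoRNA host gene Gas5 on chromosome 1, was also on 2 F9 arrays, at -2.81, -1.47 and -3.35, and at -1.71, -1.13 and -2.17 in GC-1.

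Testis arrays also took part in the choice, so the comparison of the lines with testis is a description. The 66 lncRNAs detected in GC-1 were lower there than in testis on every array for 41, higher on every array for 11 and overlapping for 14. The 57 detected in GC-2 were lower on every array for 41, higher for 5 and overlapping for 11. Among all probes detected in testis and the line, 16.4% were lower and 70.7% higher on every array in GC-1, and 15.6% and 69.9% in GC-2. By the difference of the means alone, 17 of 66 (25.8%) were at least 5-fold lower in GC-1 and 21 of 57 (36.8%) in GC-2. These counts became 9 and 13 with normexp correction and 30 and 36 with arrays scaled on the median of the detected probes. The same difference held for 11.9% and 12.5% of all probes, and 5.57% and 5.65% of the probes detected in testis and the line.

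The mean in GC-1 lay above testis for 15 of 66 (22.7%) and the mean in GC-2 for 9 of 57 (15.8%), beside 78.7% and 78.6% of all probes detected in testis and the line. The median over all probes lay 1.43 higher in GC-1 than in testis and 1.35 higher in GC-2 on this scale, and 0.28 and 0.23 higher when arrays were scaled on the median of the detected probes. The counts above testis then fell to 8 and 1. The 3 lncRNAs with means at least 5-fold higher in GC-1 than testis, beside 17.5% of all probes and 26.8% of those detected in testis and GC-1, were Dlx4 (4.90) and the 2 probes of 1700021O21Rik (2.57 and 2.56). With normexp correction or with that median only 1 of them was still at 5-fold. They stayed above testis under every scaling tried, at 3.75, 1.43 and 1.41 with the median of the detected probes. AK149221 (1.71 in GC-1), AK131748 (1.70 in GC-1) and Stil (1.70 in GC-2) followed, each at 0.56 or 0.58 with that scaling.

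**Figure D4:**
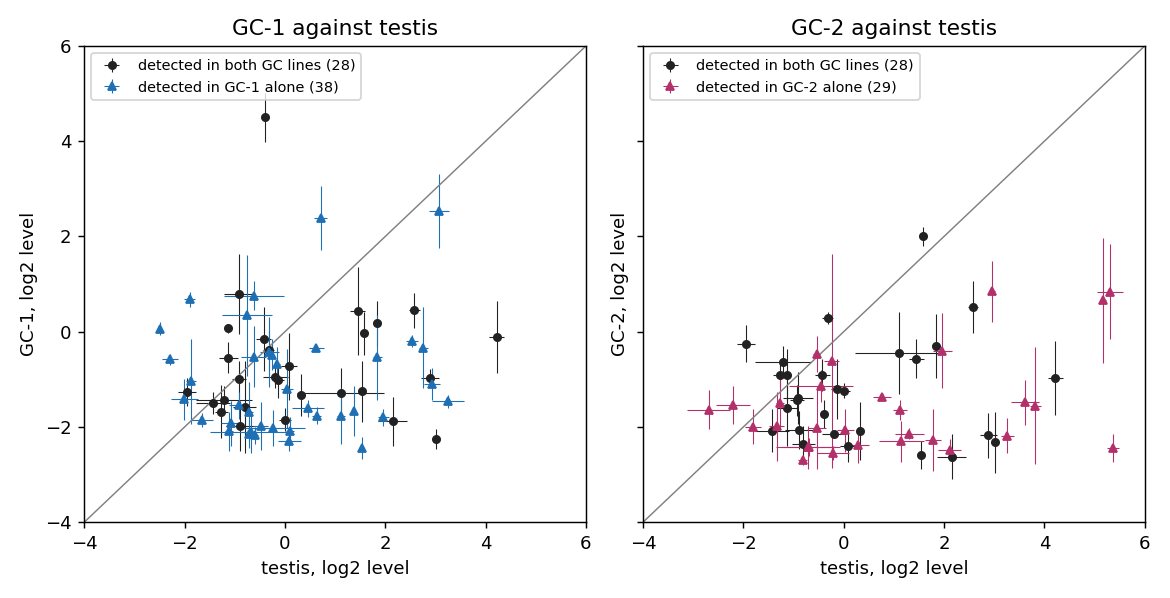
Mean level in GC-1 (left, 66 lncRNAs) and GC-2 (right, 57 lncRNAs) against the mean level in testis, with SD bars over 3 arrays and the line of equal levels in grey. Dlx4 stands at 4.50 in GC-1 against -0.40 in testis, while the lncRNAs with the highest testis values lie far below the line in GC-2.

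At the other end, among the lncRNAs named so far, the uc007pzm.1 probe of 1700018A04Rik differed from testis by -4.34 in GC-1 and by -5.20 in GC-2. FJ541090 and LOC100041014 differed from testis by -4.51 and -4.47 in GC-2, and Gas5 by -3.04 in GC-1. These values kept their sign under all 4 scalings. Some lncRNAs not described above lay further below testis. Tomm20l differed by -5.26 in GC-1 and -5.33 in GC-2, and Gm6455 by -7.82 in GC-2. C030037D09Rik was within 0.07 of testis in GC-2 and Gm15767 within 0.07 in GC-1, but with the median of the detected probes they were at -1.05 and -1.22 relative to testis.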

How the data were processed

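The authors labelled total RNA with Cy3, hybridized it to Arraystar mouse lncRNA arrays and deposited, per array, the intensity of each spot from Agilent Feature Extraction 11.5.1.1, after background subtraction and detrending but without normalization between arrays. Their normalization in GeneSpring was not repeated. The supplementary tables of the study were used to identify transcripts.

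Levels are log2 processed intensities less the 75th percentile of each array, taken over its 60804 probes. A probe flagged as well above background on all 3 arrays counted as detected. No member spot was saturated or carried an outlier flag. Testis, F9, GC-1 and GC-2 (12 arrays) were fitted with limma 3.58.1 (lmFit, eBayes; R 4.3.3), with 1 coefficient per group and Benjamini-Hochberg adjustment over all probes. Where a group was on no array well above background, the fold is a bound, set against the higher of the probe's own level and the lowest detected level of each array. On simulated data with 200 of 60804 probes changed by 2 (log2), 56.5% were recovered with 13 false calls. The simulated noise was independent between arrays, and all other probes were equal in every group. In these data many more probes were called between the GC lines (4.25% higher and 5.14% lower in GC-2), and arrays deviated together. The simulated figures therefore do not give the recovery or the false calls of the test here. Arrays give no counting depth, and 3 per group limit the precision. P-values measure the spread between these arrays, which may be technical.

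The text names the called lncRNAs, those with the brightest probes of each set, those furthest above testis, genes with more than 1 probe, and lncRNAs beside or named for listed genes. The members, lists and rules were chosen with earlier results of these data known. Same-numbered arrays of GC-1 and GC-2 deviated together (r of 0.508, 0.379 and 0.404 across 22951 probes, which are not independent). Replicates 2 and 3, which share a slide, also correlated across numbers (0.339 and 0.281), and replicate 1 went against them, so number and slide cannot be fully told apart. The replicate number was also fitted as a block. The alternatives were normexp background correction (offset 50, on median signals, since mean signals were not used here), quantile scaling, scaling on the median of detected probes, a filter on dim probes, the slide as a block, the methods' t-test and each array left out. Promoter windows and gene positions are those of RefSeq on GRCm38.p6. Python 3.11.15 with pandas 2.3.3 and matplotlib 3.10.9 was used.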

Additional observations from a re-analysis of the deposited data

Results flagged for a closer look

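The change from testis differed between GC-1 and GC-2, by the test of GC-2 against GC-1, for 6 lncRNAs detected in both lines. The difference of GC-2 from GC-1 was -6.23 for Dlx4, -2.18 for AK131748, 2.04 for Nxn, -1.67 for AK018903, -1.34 for AK041297 and -1.19 for AK161420, on the log2 scale. Dlx4 lay above testis in GC-1 on all arrays (4.90) and below testis in GC-2 on all arrays (-1.33), and kept both signs under the 4 scalings. AK131748 lay above testis in GC-1 (1.70) and, in GC-2, at -0.48 relative to testis. Nxn lay below testis in GC-1 (-1.61) and at 0.42 relative to testis in GC-2, and -0.70 when arrays were scaled on the median of detected probes. AK018903, AK041297 and AK161420 lay below testis in both lines. Both lines are set against the same testis arrays. Groups of 3 arrays were not tested for single deviating arrays.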

How the results depend on the processing

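The number of lncRNAs depended on the detection flag. When detection asked only that a signal be positive and significant, 39 remained in all, with 8 in GC-1 alone and 4 in GC-2 alone. With 2 of 3 arrays as the rule, 84 remained in all, with 28 in GC-1 alone, 15 in GC-2 alone and 41 in both lines. With each array of the lines left out in turn, the total lay between 87 and 95, GC-1 alone between 32 and 38, GC-2 alone between 25 and 29 and both lines between 25 and 34. Every probe of the list was detected in some line. Leaving out a GC array thus could not change the total, and leaving out an F9 array could only lower it, so its range is no check. Between the GC lines, 5 lower and 1 higher became 2 lower with normexp correction, 3 lower with quantile scaling, 2 lower with the methods' t-test after Benjamini-Hochberg adjustment, and 1 lower and 0 higher at 5-fold in the limma test, where 6 lncRNAs pass without that fold. The filter on dim probes gave 2 higher, as did the methods' t-test unadjusted. With each array left out, 4 to 8 were lower, the 8 without GC-1 replicate 1, and 1 was higher each time. The replicate block gave the same 5 and 1 lncRNAs and, against testis, the same 17 and 21, and so changed no call. The slide block gave the same 5 and 1 and, against testis, 16 of the 17 and 19 of the 21, with 1 and 2 others in their place. Against testis, 17 (GC-1) and 21 (GC-2) at least 5-fold lower became 9 and 13 with normexp and 30 and 36 with the median of detected probes, and lay between 16 and 17 and between 19 and 21 with each array left out. The means above testis, 15 and 9, became 8 and 1 with that median, and 15 in GC-2 with normexp, and lay between 15 and 18 and between 9 and 11 with each array left out. For 14 named lncRNAs detected in both lines, 182 values under other settings held 2 with the sign turned, both of Dscc1, which was never called (0.07, from -0.25 without GC-2 replicate 1 to 0.28 without GC-1 replicate 1, and also turned without GC-1 replicate 3). Among the rest 13 lost a call and 3 gained one; AK041297 lost it most often, with adjusted p from 0.00198 to 0.207. The cause of these changes was not tested. A level below the detection limit is only a bound, and among the 3 lines that limit reached its highest value in F9.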
